A study of Mus musculus with 16 samples.

Results

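The genes described here are 10 members of the mouse p38 kinase pathway: the MAPKAP kinases Mapkapk2, Mapkapk3 and Mapkapk5, the p38 kinases Mapk14, Mapk11, Mapk12 and Mapk13, the activating kinases Map2k3 and Map2k6, and Zfp36, which encodes the kinase target tristetraprolin. They were taken by symbol from a table of 38087 genes, and all 10 were found. Mapkapk2 was selected on its measured values, which are higher in testes of germ-free males than in those of conventional males, so its values in that contrast are given as a description, without a test. The other 9 genes were chosen by their place in the pathway, with earlier results of these data known.

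Total RNA of whole gonads was sequenced in 16 libraries of C57BL/6j mice aged 15-16 weeks, collected at ZT02-04 under ad libitum feeding. The groups were 3 testes of germ-free (GF) males, 4 testes of conventional raised (CV) males, 5 ovaries of GF females and 4 ovaries of CV females. GF mice are reared without microbes and CV mice carry an ordinary microbiota. No treatment or engineered allele is named for any group, and the labels say nothing of colonies, batches or separate animals, so p-values measure only the spread between these libraries, which may be in part technical.

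The p38 kinases are switched on by the kinases MAP2K3 and MAP2K6 under stress and cytokine signals. Active p38 alpha, the product of Mapk14, phosphorylates and activates MAPKAPK2, which in turn phosphorylates tristetraprolin and so protects short-lived messenger RNAs, many of them for cytokines, from decay. In rodent gonads the pathway is known for regulating the junctions of the Sertoli cell barrier in the testis and the expansion of the cumulus around the oocyte. RNA counts bear on the amount of these transcripts and not on the activity of the kinases.

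Levels are CPM, deposited read counts divided by TMM-scaled library sizes over all 16 libraries and set to a common size. The libraries held 25880591 to 28266867 counts in the testis and 12912251 to 15907297 in the ovary, and 1 count was worth 0.0490 to 0.0518 CPM in the testis and 0.0496 to 0.0603 CPM in the ovary. Variation between replicates, as edgeR's common biological coefficient of variation, came to 4.17% for testes and 18.5% for ovaries, so smaller changes could be told from replicate spread in the testis. The tissue labels fitted their markers: 5 spermatid genes summed to 15131 to 16937 CPM in testes and to at most 1.53 CPM in ovaries, and 6 granulosa genes summed to 820.4 to 1681 CPM in ovaries and 68.6 to 75.1 CPM in testes.

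Mapkapk2 lies on the minus strand of chromosome 1, at chr1:131053700-131097826 of GRCm38. Its level is the measure on which the gene was chosen, so the 250 bases before its start are shown as the sequence that precedes it (RefSeq, GRCm38.p6, chr1:131097844-131098093, minus strand, 5′ to 3′). Capitals mark a stretch of 15 bases that occurs in the window a second time.
Mapkapk2: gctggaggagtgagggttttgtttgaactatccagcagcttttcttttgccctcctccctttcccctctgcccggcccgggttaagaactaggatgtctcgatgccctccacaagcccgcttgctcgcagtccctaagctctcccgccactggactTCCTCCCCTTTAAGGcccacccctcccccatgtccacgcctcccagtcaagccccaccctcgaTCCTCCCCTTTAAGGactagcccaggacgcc
The repeat occupies bases 157 to 171 and 220 to 234 of the window. Of 32851 promoter windows of this length, 805, or 2.45%, held a direct repeat of at least 15 bases. The window was 60.4% G and C, against a median of 52.4% over all windows. On both strands it held no match to TATAAA (in 12.4% of all windows), CCAAT (33.8%), GGGCGG (32.7%), TGACG (17.8%) or TGACGTCA (1.55%, every match of which also holds TGACG). These counts describe letters in this window and say nothing of which factors act there.

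Mapkapk2, the principal MAPKAP kinase, measured 56.3, 56.4 and 61.6 CPM in the 3 GF testes, against 27.2, 28.6, 25.9 and 28.0 CPM in the 4 CV testes. Every GF testis was above every CV testis (58.1 ± 3.03 CPM in GF, SD, n = 3, and 27.4 ± 1.16 CPM in CV, n = 4). This separation goes with the choice of the gene on this contrast. The ranges of 16.7% of all genes tested in the testis did not overlap either. The read counts behind these levels were 1090 to 1211 in GF and 513 to 573 in CV testes. The log2 fold change, GF over CV, was 1.10 (SE 0.0546), or 2.14-fold, and it stayed between 1.05 and 1.12 over 14 other scalings, tests and fits with 1 library left out. In whole tissue, a change in the share of a cell type and a change in RNA per cell cannot be told apart.

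In the text that follows, "called" means an adjusted p under 0.05 by edgeR's quasi-likelihood test with Benjamini-Hochberg adjustment over all genes tested.

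In the ovary Mapkapk2 stood at 82.1 to 94.1 CPM in the 5 GF libraries (median 90.4) and at 88.5, 88.4, 87.9 and 81.8 CPM in the 4 CV libraries. The ranges overlapped almost completely. The log2 fold change was 0.05 (SE 0.0548, edgeR adjusted p = 0.913), with an approximate 95% interval of −0.06 to 0.16. The difference between the tissues in the GF over CV change was 1.03 on the log2 scale (SE 0.0783), and this too rests on the contrast that chose the gene.

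A small nuclear RNA copy listed as U6 (Gm25549 in GENCODE M21), which lies inside Mapkapk2 on the same strand and shares no exon base with it, was also higher in GF testes. It had 28 to 40 reads per GF testis and 9 to 13 per CV testis, or 1.76 ± 0.353 CPM in GF (SD, n = 3) and 0.559 ± 0.0933 CPM in CV (n = 4). Its log2 fold change was 1.66 (SE 0.287, edgeR adjusted p = 8.51e-05) in the testis and 0.11 (SE 0.198, adjusted p = 0.950) in the ovary. Whether its reads come from the small RNA or from unspliced Mapkapk2 was not tested, and strand-specific counting is not stated.

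**Figure D1:**
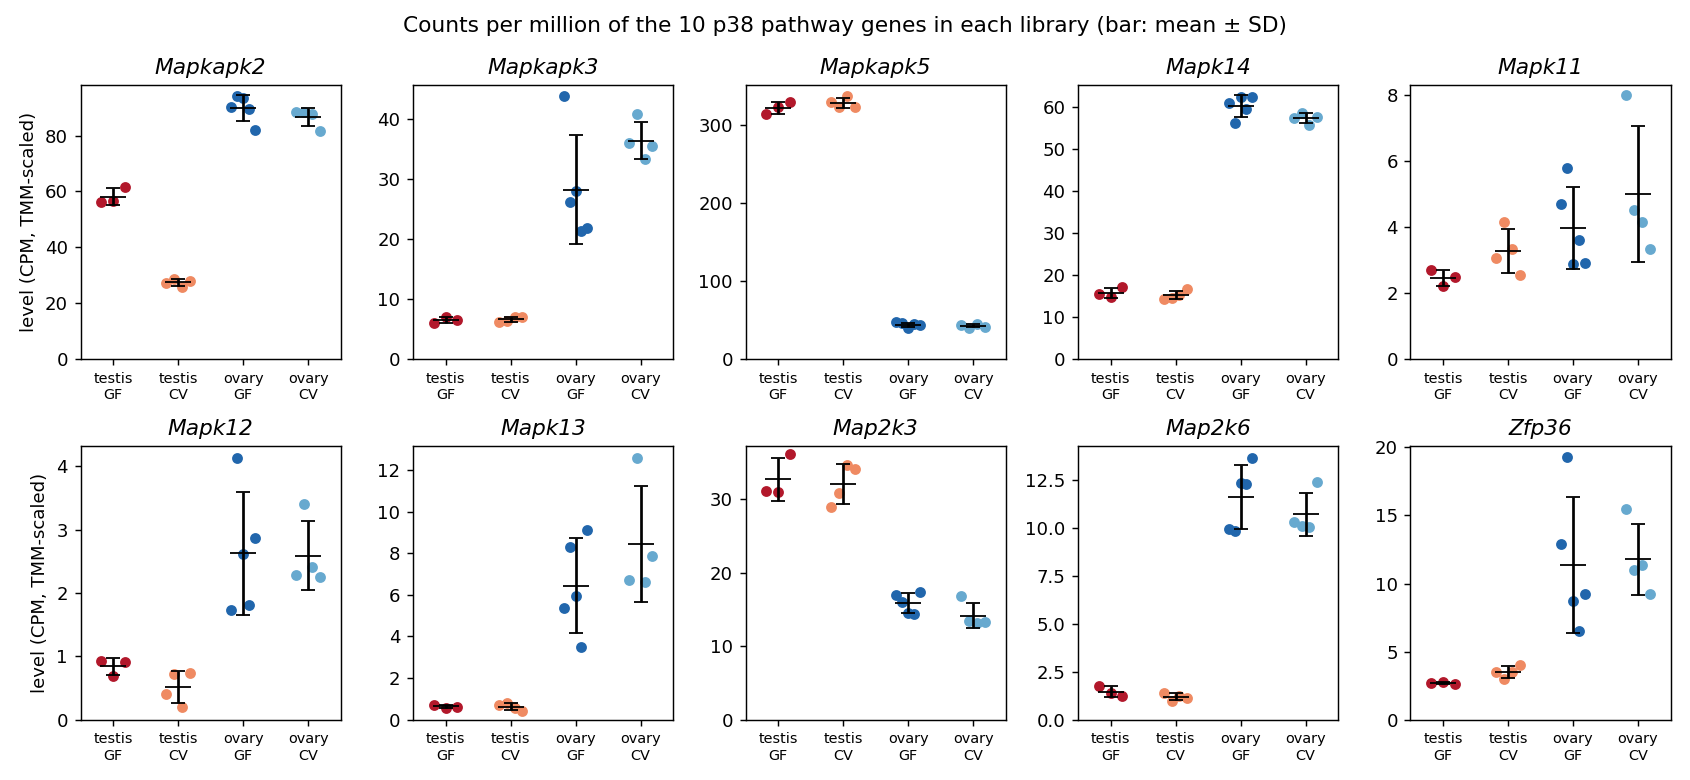
Level of each pathway gene (CPM, linear axis from 0, own scale per panel) in each library of GF testis, CV testis, GF ovary and CV ovary; points are libraries and bars are the mean ± SD. In the Mapkapk2 panel the GF testes lie at 56.3 to 61.6 CPM and the CV testes at 25.9 to 28.6 CPM, and its ovary groups overlap.

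Of the 9 members not chosen on this contrast 0 were called between GF and CV testes by edgeR, where 8.08% of the 20269 genes tested were. The log2 fold changes of the 9 others ran from −0.40 to 0.71 with a median of 0.03, against a median of 0.00 over all genes tested, and their adjusted p-values from 0.220 to 0.981. All 10 passed the filter on low counts in every fit.

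Among the p38 kinases, Mapk14, the p38 alpha gene and the usual activator of MAPKAPK2, measured 15.4, 14.8 and 17.1 CPM in GF testes and 14.4, 14.7, 15.4 and 16.7 CPM in CV testes. These values lay within one another's range, with a log2 fold change of 0.06 (SE 0.0788, edgeR adjusted p = 0.750) and an approximate 95% interval of −0.09 to 0.22. Mapk11, the p38 beta gene, measured 2.69, 2.20 and 2.49 CPM in GF testes and 3.06, 4.16, 3.34 and 2.55 CPM in CV testes. GF libraries were at the low end, but 1 CV library lay among them, and the log2 fold change of −0.40 (SE 0.185, unadjusted p = 0.0386, edgeR adjusted p = 0.220) missed the threshold.

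Mapk12 and Mapk13, the p38 gamma and delta genes, were rare in the testis. Mapk12 measured 0.929, 0.686 and 0.916 CPM in GF testes and 0.415, 0.720, 0.202 and 0.734 CPM in CV testes, from 4 to 18 reads a library. Its log2 fold change of 0.71 had an SE of 0.371 and an edgeR adjusted p of 0.298. Mapk13 was at 0.588 to 0.723 CPM in GF and 0.441 to 0.823 CPM in CV testes, with a log2 fold change of 0.03 (SE 0.357). At 9 to 16 reads a library for Mapk13, its approximate 95% interval was wide, from −0.67 to 0.73, and changes within it are compatible with these values.

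Neither of the activators was called. Map2k3 measured 31.0, 30.9 and 36.1 CPM in GF testes against 28.9, 30.8, 34.6 and 34.1 CPM in CV testes, a log2 fold change of 0.04 (SE 0.0648, edgeR adjusted p = 0.809). Map2k6 measured 1.76, 1.42 and 1.22 CPM in GF testes against 1.40, 0.977, 1.26 and 1.13 CPM in CV testes, a log2 fold change of 0.31 (SE 0.254, adjusted p = 0.564). Both pairs of ranges overlapped.

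Mapkapk3, the close relative of Mapkapk2 that shares its activators and substrates, was not called. It measured 5.99, 7.01 and 6.46 CPM in GF testes and 6.17, 6.43, 7.03 and 7.00 CPM in CV testes, with a log2 fold change of −0.02 (SE 0.116, edgeR adjusted p = 0.948, approximate 95% interval −0.25 to 0.20). Per length, Mapkapk2 made up 94.2 ± 0.520% of the summed CPM per kb of these 2 kinases in GF testes (SD, n = 3) and 88.2 ± 0.926% in CV testes (n = 4). That share follows from the Mapkapk2 values above.

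Zfp36, the target whose protein MAPKAPK2 phosphorylates, measured 2.74, 2.79 and 2.59 CPM in GF testes and 3.52, 2.98, 3.49 and 4.01 CPM in CV testes. All GF libraries were below all CV libraries, but the log2 fold change of −0.36 (SE 0.167, unadjusted p = 0.0392, edgeR adjusted p = 0.221) missed the threshold. Of the 9 members other than Mapkapk2, Zfp36 was the 1 whose group ranges did not overlap, as those of 16.7% of all genes tested in the testis did not.

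**Figure D2:**
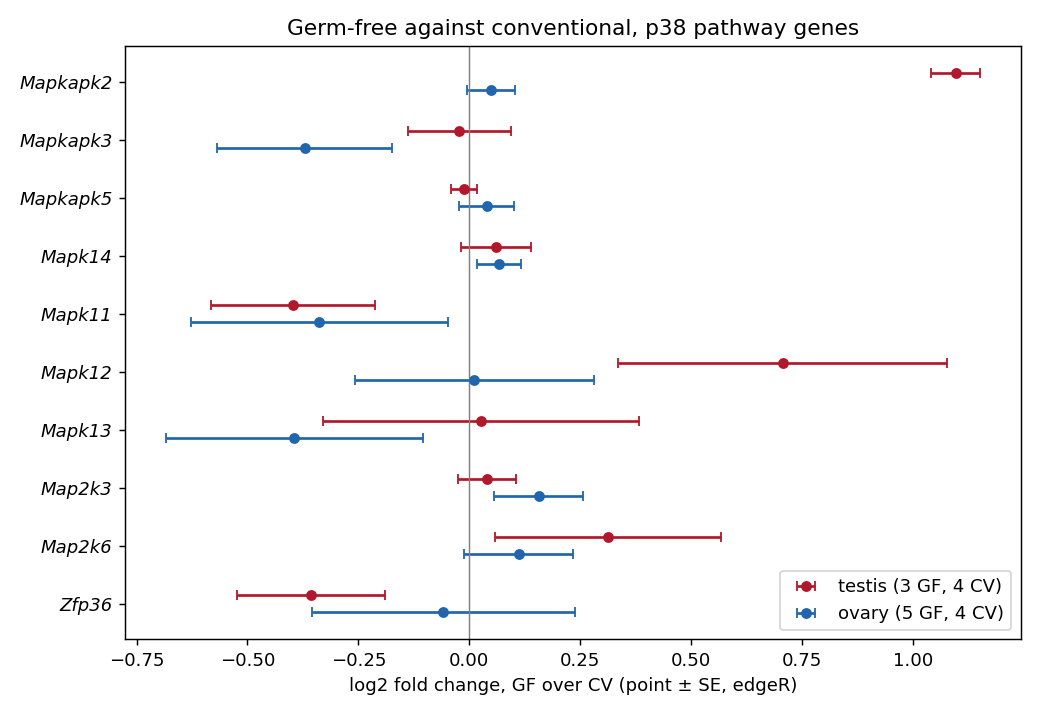
Log2 fold change, GF over CV, of each pathway gene in the testis (red, 3 GF and 4 CV libraries) and the ovary (blue, 5 GF and 4 CV), as edgeR estimates with bars of 1 SE. Mapkapk2 in the testis stands at 1.10; the other testis values run from −0.40 to 0.71 and the ovary values from −0.39 to 0.16.

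In the ovary none of the 10 members was called, where 0.177% of 18095 genes were, and none had an unadjusted p under 0.05, where 6.48% of genes did. With the replicate number as a block, which the ovary libraries share, 91 genes in place of 32 were called, and still no member. The block leaves out GF ovary replicate 5, whose number no CV ovary has, so these counts come from different sets of libraries. No member's group ranges failed to overlap, where 2.81% of genes did. The log2 fold changes of the 9 members other than Mapkapk2 ran from −0.39 to 0.16, with edgeR adjusted p-values from 0.810 to 0.996.

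Mapkapk3 had the smallest p of the members in the ovary. It measured 21.4 to 43.8 CPM in GF ovaries (median 26.1) and 36.1, 40.8, 33.3 and 35.5 CPM in CV ovaries. Of the 5 GF ovaries 4 were below every CV ovary and 1, replicate 1, was above them all. The log2 fold change was −0.37 (SE 0.197, unadjusted p = 0.0907, edgeR adjusted p = 0.810).

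Mapk14 was at 56.3 to 62.5 CPM in GF ovaries (median 61.0) and at 55.7 to 58.7 CPM in CV ovaries, with a log2 fold change of 0.07 (SE 0.0496, approximate 95% interval −0.03 to 0.16). Zfp36 spread widely, from 6.52 to 19.3 CPM in GF ovaries (median 9.26) and from 9.27 to 15.5 CPM in CV ovaries, with a log2 fold change of −0.06 (SE 0.297). The interval for Zfp36 therefore ran from −0.64 to 0.52, and that for Mapk13 (3.49 to 9.10 CPM in GF and 6.63 to 12.6 CPM in CV ovaries) from −0.96 to 0.17. Changes within these intervals are compatible with the values. The intervals use a normal approximation and may be too narrow with so few libraries.

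The change between GF and CV was compared across tissues directly. The value for Mapkapk2, given above, rests on the testis contrast that chose the gene and is left out of the count. Of the 9 others 0 were called for this difference by edgeR, where 0.132% of 21977 genes were, and 0 had an unadjusted p under 0.05. Their difference, testis change less ovary change, ran from −0.31 for Zfp36 (SE 0.390) to 0.68 for Mapk12 (SE 0.491), with edgeR adjusted p-values of at least 0.857.

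Beside these values stand other measures of the GF and CV groups, of which some differed between the groups and some overlapped. A list of 11 macrophage markers summed to 129.9 to 139.9 CPM in GF testes and 143.3 to 150.4 CPM in CV testes, without overlap. The ranges of 16.7% of all single genes tested in the testis did not overlap either. Of the 11 genes 1 was called, lower in GF, where 4.41% of all genes were called lower. The 4 oviduct epithelium markers summed to 78.7 to 83.7 CPM in GF and 84.7 to 99.9 CPM in CV testes, also without overlap. Spermatid markers summed to 15131 to 16021 CPM in GF testes and 15946 to 16937 CPM in CV testes. Spermatocyte markers summed to 1358 to 1423 CPM in GF and 1302 to 1366 CPM in CV testes. Both of these pairs of ranges overlapped. Of the 5 spermatocyte markers 2 had a positive log2 fold change (list median −0.0037), and those 2 were called higher in GF testes. Over all genes 3.67% were called higher. Of the 5 spermatid markers 1 was called lower, as was 1 of the 3 oviduct epithelium markers tested. Among 5 spermatogonia markers 1 was called higher. No gene of the Sertoli or Leydig lists was called. Nnt, which is partly deleted in C57BL/6J mice but not in related substrains, averaged 135.8 ± 4.74 CPM in GF and 105.4 ± 3.63 CPM in CV testes, and 125.3 ± 15.6 CPM in GF and 58.5 ± 2.02 CPM in CV ovaries (SD, n = 3, 4, 5 and 4). The part of these measures in the Mapkapk2 difference was not tested, and microbiota and any difference between colonies cannot be told apart.

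The genes around Mapkapk2 were examined for the same contrast. A window of 1 Mb on each side held 63 annotated genes, of which 43 were in the table and 28 were tested in the testis, Mapkapk2 not counted. Of these 28, 5 were called higher and 3 lower in GF testes, 28.6% in all, against 8.08% of all genes (3.67% higher and 4.41% lower). In the ovary 26 were tested and 0 were called by edgeR, against 0.177% of all genes.

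The called neighbours differed in direction and size. Faim3 (Fcmr, an Fc receptor for immunoglobulin M), 232 kb from the start of Mapkapk2, averaged 0.517 ± 0.276 CPM in GF testes and 4.82 ± 0.679 CPM in CV testes (SD, n = 3 and 4; log2 fold change −3.18, SE 0.248, edgeR adjusted p = 2.01e-12). Ikbke, a kinase of the interferon and NF-kappaB responses 182 kb away on the other side, averaged 3.77 ± 0.178 CPM in GF and 2.11 ± 0.174 CPM in CV testes (log2 fold change 0.85, SE 0.172, adjusted p = 0.000649). Srgap2 averaged 48.1 ± 0.364 CPM in GF and 37.6 ± 2.33 CPM in CV testes (log2 fold change 0.37, SE 0.0533, adjusted p = 4.07e-06).

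Zp3r, a gene of the sperm acrosome, and Dyrk3, a protein kinase, fell slightly in GF testes. Their log2 fold changes were −0.17 (SE 0.0342, edgeR adjusted p = 0.000478) and −0.15 (SE 0.0312, adjusted p = 0.00134). Cd55, which encodes a complement inhibitor, was called at a log2 fold change of 0.15 (SE 0.0449, adjusted p = 0.0288) and Fam72a at 0.50 (SE 0.139, adjusted p = 0.0182). Both of these calls were lost by DESeq2 (adjusted p = 0.0597 and 0.0535) and without a single library: that of Cd55 had an adjusted p of 0.0735 and 0.111 without CV replicates 1 and 3, and of 0.206 and 0.132 without GF replicates 1 and 2. That of Fam72a had an adjusted p of 0.0877 without CV replicate 1 and of 0.102 and 0.0782 without GF replicates 1 and 2. The eighth called neighbour was the U6 copy inside Mapkapk2.

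**Figure D3:**
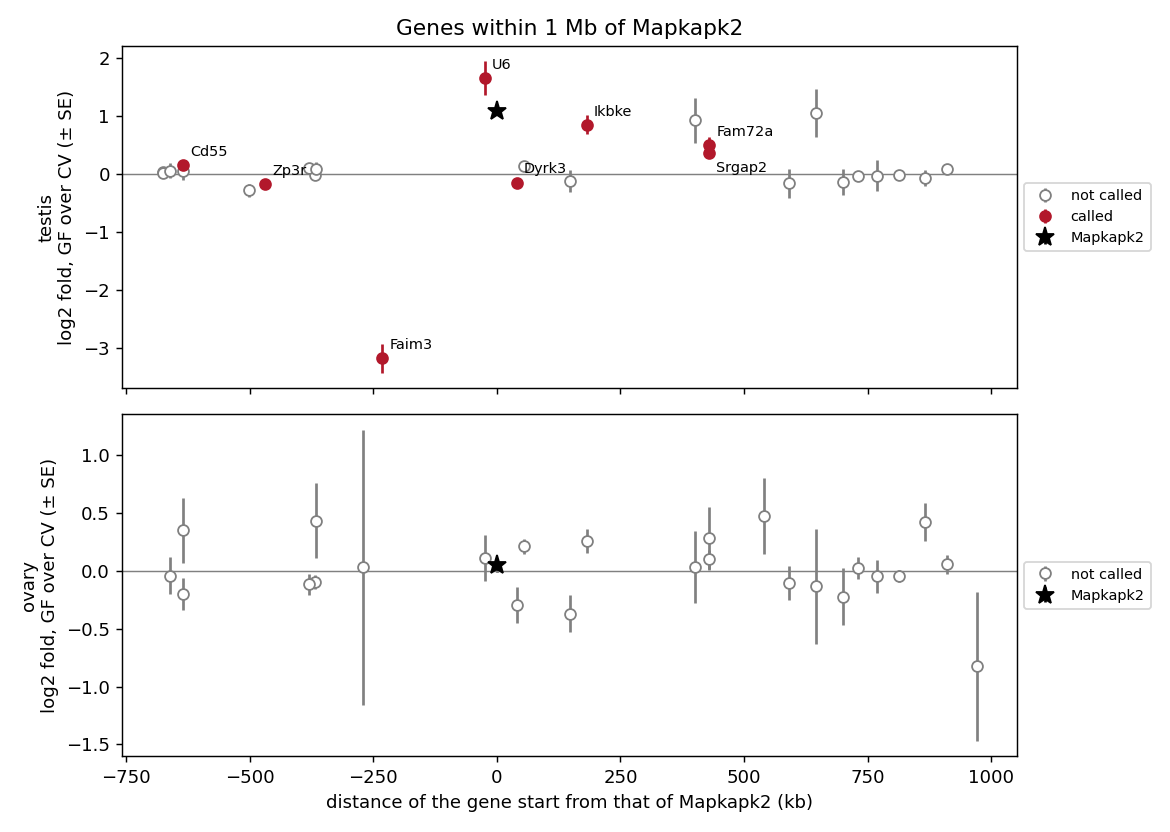
Log2 fold change, GF over CV (edgeR, bars of 1 SE), of genes within 1 Mb of Mapkapk2 against the distance of their start from its start in kb, in the testis (top) and the ovary (bottom); filled points were called and the star is Mapkapk2. In the testis Faim3 is the lowest called neighbour, at −3.18, and the U6 copy inside Mapkapk2 the highest, above Ikbke at 0.85. The 20 uncalled testis neighbours lie between −0.28 and 1.06, and in the ovary 0 of 26 neighbours were called. Neighbours that reach into the window but start outside it, such as Thsd7b, are in these counts but are not drawn.

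Genes whose levels followed those of Mapkapk2 were sought over the 16 libraries among 16131 genes tested in both tissues. The measure was the Pearson correlation of log2 CPM less the tissue mean. Predicted and unnamed genes were then passed over, and the 5 closest of the rest were kept. They were Rab4a (r = 0.964), a GTPase of recycling endosomes, Ryr2 (0.945), a calcium release channel, Gdi2 (0.942), which recycles Rab GTPases, Hes1 (0.939), a transcriptional repressor of the Notch pathway, and Tmem37 (0.915). The libraries share the GF against CV split that sets Mapkapk2, so these values describe a common pattern over the same 16 libraries and carry no test. Rab4a, the closest, averaged 10.2 ± 0.667 CPM in GF and 4.44 ± 0.531 CPM in CV testes, and 10.7 ± 0.885 CPM in GF and 9.46 ± 0.362 CPM in CV ovaries (SD, n = 3, 4, 5 and 4). The correlations of the other pathway members with Mapkapk2 ran from −0.27 for Mapk11 to 0.48 for Mapk12. The 5 genes above were picked for the highest values, so that the members fall below them carries no information.

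The genes that act above and below the p38 kinases were counted in 5 lists, by the testis contrast first. The counts stand beside the shares over all genes in the testis, where 3.67% rose and 4.41% fell in GF. Of 22 upstream kinases and adaptors 0 were called in GF against CV testes by edgeR, with a median log2 fold change of 0.04. The smallest p belonged to Taok3, a kinase above MAP2K3 and MAP2K6, at 0.18 (SE 0.0737, edgeR adjusted p = 0.140). Of 10 phosphatases that act on p38, 1 fell and 0 rose by edgeR, with a list median of −0.09. It was Ppm1a, at 374.5 CPM on average in GF and 416.8 CPM in CV testes (log2 fold change −0.14, SE 0.0285, adjusted p = 0.000749).

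Of 15 other p38 substrates 1 rose and 1 fell in GF testes, with a median of −0.01. Rps6ka4, the nuclear kinase MSK2, was called at 0.19 (SE 0.0610, edgeR adjusted p = 0.0395), and Eef2k, the kinase of elongation factor 2, at −0.24 (SE 0.0750, adjusted p = 0.0433). Both calls were lost by DESeq2 (adjusted p = 0.0843 and 0.0891), that of Eef2k also by limma-voom (0.0551), and both without a single library. That of Rps6ka4 had an adjusted p of 0.0724 and 0.152 without CV replicates 1 and 2, and of 0.135 and 0.286 without GF replicates 1 and 3. That of Eef2k had an adjusted p of 0.0578 and 0.223 without CV replicates 2 and 3, and of 0.211 and 0.185 without GF replicates 2 and 3.

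Of 14 MAPKAP kinase substrates 0 were called by edgeR, with a median of 0.00. The smallest p among them was that of Parn, a poly(A) ribonuclease, at −0.27 (SE 0.0893, edgeR adjusted p = 0.0958). It was called by DESeq2 (adjusted p = 0.0325) and by edgeR with no filter on low counts (0.000419). It was also called by edgeR without CV replicate 4 (log2 fold change −0.35, adjusted p = 3.99e-05). The replicate block, which leaves out that same library, called it too (0.000231). Of 17 transcripts that tristetraprolin is known to destabilise, 4 were abundant enough to test in the testis, and 1, the cytokine gene Il1b, rose. It had 20 to 36 reads per GF testis and 9 to 17 per CV testis, or 1.36 ± 0.373 CPM in GF (SD, n = 3) and 0.647 ± 0.182 CPM in CV (n = 4), with a log2 fold change of 1.08 (SE 0.305, adjusted p = 0.0195). The call was lost without CV replicate 1 or 4 (adjusted p = 0.0513 and 0.0555) and without GF replicate 2 or 3 (0.214 and 0.0517). The median of the 4 tested targets was −0.18.

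In the ovary 0 of the 70 tested genes of these 5 lists were called by edgeR, with 2 at an unadjusted p under 0.05, and list medians lay between −0.07 and 0.02. The smallest p belonged to Ddit3, the stress-induced factor CHOP and a p38 substrate, which averaged 14.3 CPM in GF and 10.6 CPM in CV ovaries (log2 fold change 0.43, SE 0.115, edgeR adjusted p = 0.429), and in the joint fit of all 16 libraries it was called (adjusted p = 0.0436). For the difference between tissues the lists also held 0 called genes by edgeR, with 8 of their 74 tested genes at an unadjusted p under 0.05, against 6.93% of all genes. Ddit3 again had the smallest p, at −0.50 (SE 0.128, adjusted p = 0.217), and by DESeq2 its adjusted p was 0.0181. Without CV ovary replicate 1 its edgeR adjusted p was 0.0177, with a difference of −0.62.

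All 10 members differed between testis and ovary, in organs where 89.8% of 21977 genes differed in GF and 90.3% in CV mice. In GF mice 8 members were lower and 2 were higher in testis by edgeR, and the counts were the same in CV mice. The 2 higher ones were Map2k3 and Mapkapk5, of which Mapkapk5 shares annotated exon with another gene. By direction, 46.1% of all genes were called higher and 43.7% lower in GF testis, and 46.3% higher and 44.0% lower in CV testis. The choice of scaling shifts all genes together here: the median log2 fold change over all genes, testis over ovary, was 0.04 in GF and 0.05 in CV mice with TMM, 0.19 and 0.20 with DESeq2's size factors, and −0.75 and −0.76 with library totals. The signs of the 10 members were the same under each of these scalings.

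Mapkapk2 itself was 1.52-fold lower in GF testes than in GF ovaries (58.1 ± 3.03 CPM in testis, SD, n = 3, and 89.9 ± 4.77 CPM in ovary, n = 5; log2 fold change −0.61, SE 0.0569, edgeR adjusted p = 1.21e-08). In CV mice it was 3.11-fold lower (27.4 ± 1.16 CPM in testis and 86.7 ± 3.23 CPM in ovary, n = 4 each; log2 fold change −1.64, SE 0.0562, adjusted p = 4.33e-15). With library totals the log2 fold changes were −1.40 in GF and −2.44 in CV mice. Mapkapk3 was 4.29-fold lower in GF testes (log2 fold change −2.10, SE 0.196, adjusted p = 1.84e-08) and 5.39-fold lower in CV testes (−2.43, SE 0.181, adjusted p = 8.20e-10).

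The p38 genes were each lower in testis. Mapk14 averaged 15.8 ± 1.19 CPM in GF testes and 60.3 ± 2.56 CPM in GF ovaries (SD, n = 3 and 5; log2 fold change −1.91, SE 0.0652, edgeR adjusted p = 3.90e-15), and 15.3 ± 1.04 CPM in CV testes and 57.4 ± 1.27 CPM in CV ovaries (n = 4 each; −1.89, SE 0.0605, adjusted p = 1.52e-15). Mapk13 had the largest difference of the 4, at 0.640 ± 0.0723 CPM in GF testes against 6.45 ± 2.28 CPM in GF ovaries (log2 fold change −3.30, SE 0.356, adjusted p = 8.47e-08), and a log2 fold change of −3.70 (SE 0.324) in CV mice. Mapk12 had a log2 fold change of −1.61 in GF and −2.29 in CV mice (SE 0.344 and 0.345).

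Mapk11 had the smallest difference of the 4 p38 genes. It averaged 2.46 ± 0.242 CPM in GF testes and 3.98 ± 1.25 CPM in GF ovaries (SD, n = 3 and 5; log2 fold change −0.67, SE 0.291, edgeR adjusted p = 0.0385). In CV mice it averaged 3.28 ± 0.677 CPM in testes and 5.01 ± 2.07 CPM in ovaries, with overlapping ranges (n = 4 each; −0.59, SE 0.269, adjusted p = 0.0462). Both calls were lost with DESeq2's size factors (adjusted p = 0.0952 in GF and 0.126 in CV mice), by DESeq2's own test (0.0927 and 0.133) and by limma-voom (0.0671 and 0.0575). The CV call was also lost with the replicate block (0.0539). The GF call was lost without GF ovary replicate 1 or 2 (0.0728 and 0.101) and without GF testis replicate 1, 2 or 3 (0.0548, 0.117 and 0.0805). The CV call was lost without CV ovary replicate 1 (−0.27, adjusted p = 0.300) and without CV testis replicate 1, 3 or 4 (adjusted p = 0.0899, 0.0747 and 0.130). Through the shared spread it was also lost without GF ovary replicate 4 or GF testis replicate 1, 2 or 3 (0.0537, 0.0540, 0.0537 and 0.0550).

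The activators went opposite ways. Map2k3 averaged 32.7 ± 2.94 CPM in GF testes and 15.8 ± 1.36 CPM in GF ovaries (SD, n = 3 and 5; log2 fold change 1.07, SE 0.0938, edgeR adjusted p = 4.95e-09), and 32.1 ± 2.70 CPM in CV testes and 14.2 ± 1.74 CPM in CV ovaries (n = 4 each; 1.20, SE 0.0943, adjusted p = 9.30e-10). Map2k6 averaged 1.47 ± 0.270 CPM in GF testes and 11.6 ± 1.67 CPM in GF ovaries (−2.96, SE 0.174, adjusted p = 1.33e-11), and its CV value was −3.14 (SE 0.163). Zfp36 had a log2 fold change, testis over ovary, of −2.04 in GF mice (SE 0.296, adjusted p = 5.04e-06) and −1.73 in CV mice (SE 0.267, adjusted p = 1.06e-05).

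Map2k3 and Map2k6 can be set against each other per length, as CPM per kb of GENCODE M21 exon. Map2k3 made up 95.8 ± 1.01% of the pair in GF testes, 96.5 ± 0.676% in CV testes, 58.7 ± 4.37% in GF ovaries and 57.8 ± 4.13% in CV ovaries (SD, n = 3, 4, 5 and 4). Among the p38 genes Mapk14 was the main transcript in every group, at 73.8% of the summed CPM per kb in GF testes, 70.4% in CV testes, 77.2% in GF ovaries and 72.2% in CV ovaries. Mapk11 came next in the testis, at 17.5 ± 1.22% in GF and 22.8 ± 4.11% in CV, and Mapk13 in the ovary, at 11.3 ± 3.48% in GF and 14.6 ± 3.86% in CV.

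**Figure D4:**
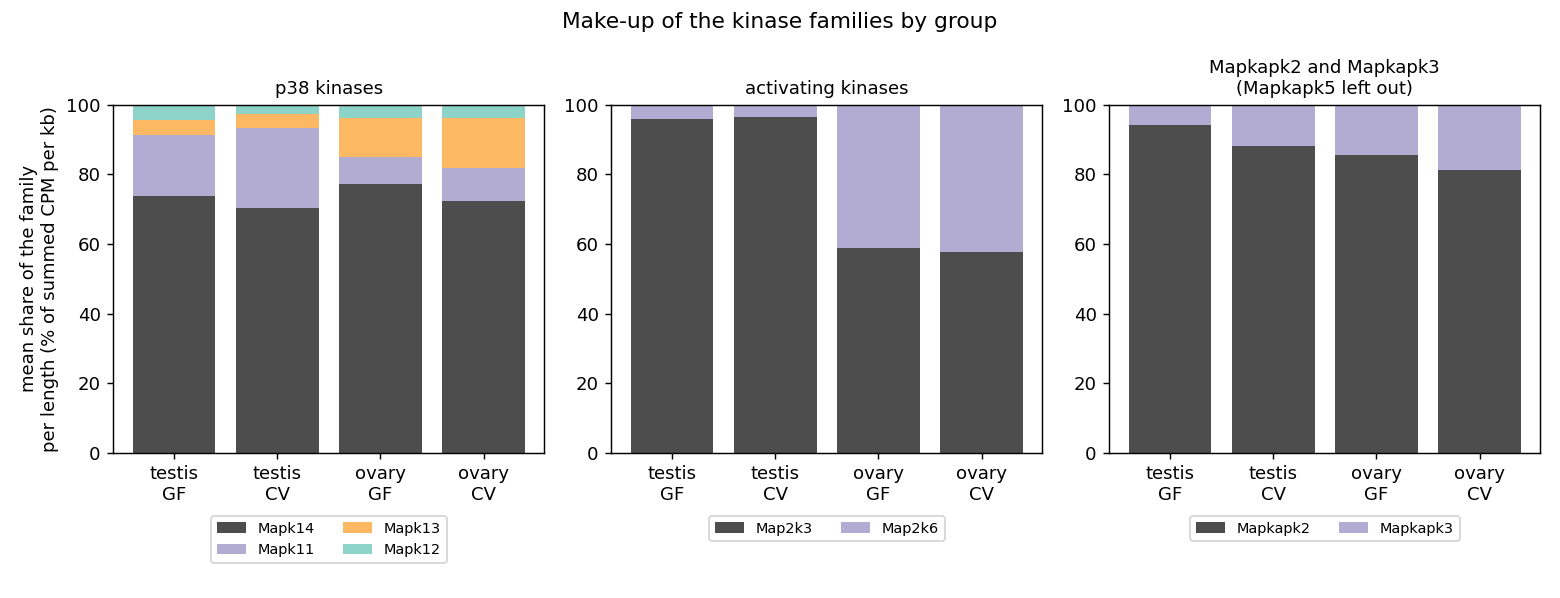
Mean share of each gene in its family, in percent of the family's summed CPM per kb of exon, in GF testis, CV testis, GF ovary and CV ovary (bars from 0 to 100). Mapk14 is the largest part of the p38 kinases in all groups (70.4 to 77.2%), and Map2k6 is 3.47 to 4.18% of the activators in testis and 41.3 to 42.2% in ovary.

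The order of the members by level per length differed between the tissues, and Mapkapk5, whose reads cannot be assigned to it alone, is left out of it. In GF testes Mapkapk2 stood at 19.1 ± 0.996 CPM per kb, above Map2k3 at 9.86 ± 0.888 and Mapk14 at 3.60 ± 0.271. In CV testes Map2k3 (9.68 ± 0.814 CPM per kb) and Mapkapk2 (9.02 ± 0.381) did not differ beyond their spread. Mapkapk3 (1.17 ± 0.0917 CPM per kb in GF and 1.20 ± 0.0770 in CV testes), Mapk11 and Zfp36 followed, the last pair within each other's spread in both groups, and Map2k6, Mapk12 and Mapk13 were below 0.43 CPM per kb. In ovaries Mapkapk2 was the highest of these 9 members, at 29.6 ± 1.57 CPM per kb in GF and 28.5 ± 1.06 in CV, and Mapk12 the lowest, at 0.691 ± 0.256 CPM per kb in GF and 0.681 ± 0.143 in CV.

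Mapkapk5 needs a separate account, since its reads cannot be assigned to it alone. As deposited it measured 313.2 to 328.7 CPM in GF testes and 322.5 to 336.0 CPM in CV testes, against 40.3 to 46.9 CPM in GF ovaries and 40.3 to 45.5 CPM in CV ovaries. That is a log2 fold change, testis over ovary, of 2.89 in GF (SE 0.0510, edgeR adjusted p = 2.58e-19) and 2.96 in CV mice (SE 0.0534, adjusted p = 4.21e-19). In GENCODE M21, however, 1805 of its 3195 exon bases on chromosome 5 (chr5:121525038-121545905, minus strand) are also exon of Adam1a on the same strand, an ADAM family gene of male germ cells with 5703 further exon bases.

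Adam1a had 5296 to 5777 reads per GF testis and 5538 to 5854 per CV testis, against 99 to 138 per GF ovary and 106 to 117 per CV ovary. In the testis its count was 87.3 to 88.8% of that of Mapkapk5, and in the ovary 13.4 to 16.4%. Had every Adam1a read also been counted for Mapkapk5, the rest would be 38.4 to 39.7 CPM in GF testes, 36.6 to 40.5 CPM in CV testes, 34.7 to 40.5 CPM in GF ovaries and 34.2 to 39.0 CPM in CV ovaries. These ranges overlap across all 4 groups. On that difference the log2 fold change, testis over ovary, was 0.08 in GF (edgeR adjusted p = 0.229) and 0.11 in CV mice (adjusted p = 0.0863), so both calls ended. How many reads the 2 genes shared in the deposited counting is not given in the sources used here, and the subtraction was chosen after the counts were seen.

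Between GF and CV testes the deposited Mapkapk5 counts gave a log2 fold change of −0.01 (SE 0.0296, edgeR adjusted p = 0.881), and the difference from Adam1a gave 0.027 (adjusted p = 0.849). Neither passed the test.

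**Figure D5:**
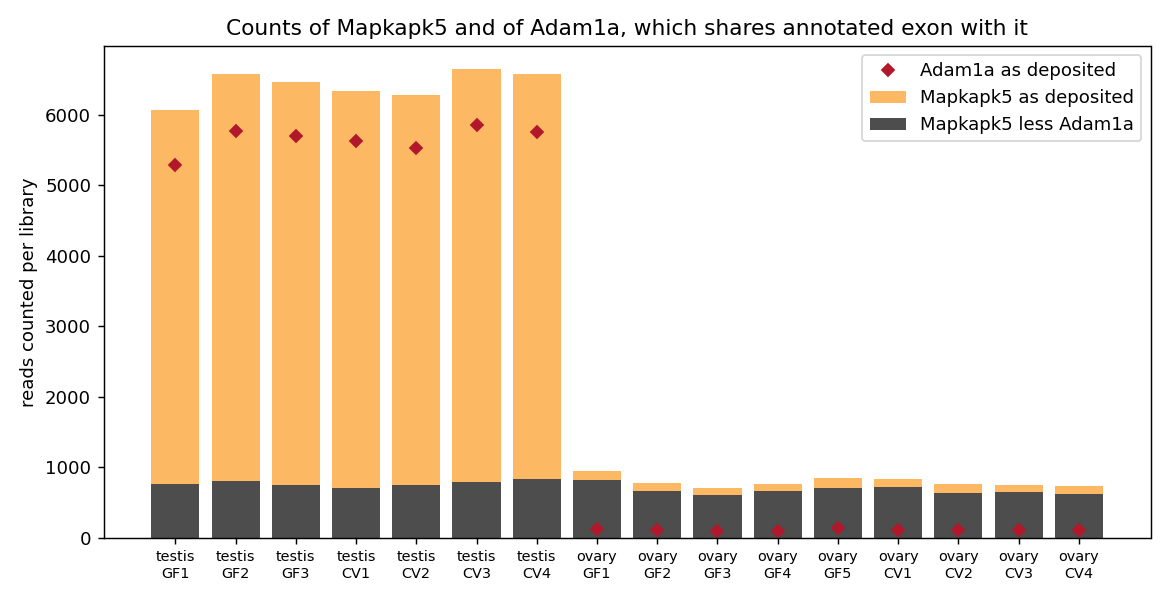
Reads per library counted for Mapkapk5 as deposited (orange bars), for Adam1a (red diamonds) and their difference (dark bars), from GF testis on the left through CV testis and GF ovary to CV ovary. The difference runs from 611 to 828 reads in all 16 libraries, while Mapkapk5 as deposited runs from 6065 to 6647 in testis and 710 to 944 in ovary.

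The lists around the pathway also differed between testis and ovary, in directions that varied from list to list. The counts of each list stand beside the shares over all genes. Those were 46.1% higher and 43.7% lower in GF testis, and 46.3% higher and 44.0% lower in CV testis. Of 22 upstream kinases and adaptors 6 were higher and 15 lower in GF testis, with a median log2 fold change of −0.65, and 5 were higher and 16 lower in CV testis, with a median of −0.61. The lowest was Gadd45a, a stress-induced activator of MAP3K4, at 2.23 CPM in testis and 41.0 CPM in ovary of GF mice (log2 fold change −4.17, SE 0.266). Map3k5, the kinase ASK1, was at 8.72 CPM in testis and 90.4 CPM in ovary (−3.35, SE 0.179), and Zak, a kinase of ribosome stress that the table lists as B230120H23Rik, at 21.7 CPM in testis and 103 CPM in ovary (−2.22, SE 0.0744). Their edgeR adjusted p-values were 2.05e-10, 1.51e-11 and 3.01e-15.

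The phosphatases that act on p38 went mostly the other way. Of 10, 8 were higher and 1 lower in GF testis, with a median of 1.90, and 7 were higher and 1 lower in CV testis, with a median of 2.02. Ppm1d, the phosphatase WIP1, stood at 539.3 CPM in GF testes and 21.3 CPM in GF ovaries (log2 fold change 4.69, SE 0.0629, edgeR adjusted p = 8.22e-21), and at 4.74 (SE 0.0674) on the log2 scale in CV mice. Dusp10, a dual-specificity phosphatase of the MAP kinases, had log2 fold changes of 2.55 in GF (SE 0.191) and 2.85 in CV mice (SE 0.201), and Dusp4, another of that family, stood at 33.8 CPM in GF testes and 4.30 CPM in GF ovaries.

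Of 15 other p38 substrates 6 were higher and 8 lower in testis in GF and in CV mice alike, with medians of −0.87 in both. Elk1 and Elk4, transcription factors that p38 can phosphorylate, had log2 fold changes of −3.05 (SE 0.149) and −2.88 (SE 0.103) in GF mice, and Mef2c, another factor under p38, of −2.71 (SE 0.0929). In CV mice Ddit3 took the third place, at 69.8 CPM in testis and 10.6 CPM in ovary (2.74, SE 0.0936).

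Of 14 MAPKAP kinase substrates 4 were higher and 9 lower in GF testis (median −0.39), and 5 were higher and 8 lower in CV testis (median −0.27). The lower ones included Lsp1, an actin-binding protein of leukocytes, at 1.76 CPM in testis and 51.0 CPM in ovary of GF mice. Zfp36l1, a relative of tristetraprolin, was at 10.3 CPM in testis and 83.0 CPM in ovary, and Cdc25b, a cell cycle phosphatase, at 1.95 CPM in testis and 14.4 CPM in ovary of GF mice.

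The transcripts that tristetraprolin is known to destabilise were scarce in testis. Of the 13 tested, 1 was higher and 11 were lower in GF testis, with a median log2 fold change of −4.07. In CV testis 0 were higher and 11 lower by edgeR, with a median of −3.01. Myc, the growth regulator, averaged 0.219 CPM in GF testes and 35.0 CPM in GF ovaries, and 0.458 CPM in CV testes and 31.1 CPM in CV ovaries. Ier3, an early response gene, averaged 0.943 CPM in GF testes and 24.4 CPM in GF ovaries (log2 fold change −4.66, SE 0.389). Plaur, the urokinase receptor, averaged 0.102 CPM in GF testes and 3.24 CPM in GF ovaries, and Ptgs2, the inducible cyclooxygenase, 0.0380 CPM in CV testes and 2.64 CPM in CV ovaries. Their testis values are near the floor, since 1 read is worth 0.0490 to 0.0518 CPM there. Plaur ran from 0.0490 to 0.153 CPM in GF testes and Ptgs2 from 0 to 0.0518 CPM in CV testes, so the size of such changes is uncertain. The macrophage markers stood at 129.9 to 150.4 CPM in testes and 275.8 to 580.6 CPM in ovaries, and their part in these differences was not tested.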

How the data were processed

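Read counts per gene are the authors' deposited values, whole numbers that were not normalised. Reads were aligned with STAR 2.4.0i to mm10, as far as the submitters' processing notes name them, and libraries were rRNA-depleted and stranded, per the labels' protocols. For the counting tool, its annotation and its strand setting, nothing is given in the sources used here. Each of the 16 columns matched a sample title.

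Counts were scaled by TMM, filtered by edgeR's expression filter (count minimum 10) and tested by edgeR 4.0.16 (R 4.3.3) with robust quasi-likelihood F tests, two-sided, GF against CV within each tissue, and over all 16 libraries for the tissue by microbiota difference and for testis against ovary. P-values were adjusted by Benjamini-Hochberg over all genes tested, and 0.05 was the threshold. The steps were tested on simulated data. Levels are CPM, and per kb of union exon length in GENCODE M21 where genes are compared. Alternatives were DESeq2 1.42.0, limma-voom (3.58.1), 2 other scalings, no filter, a replicate block, a joint fit and each library left out. The block used only the replicate numbers present in every group of a fit. It thus left out CV testis replicate 4 in the testis and GF ovary replicate 5 in the ovary. Over both tissues it left out every replicate numbered above 3.

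The members and lists were chosen with earlier results of these data known, and 92 of 93 list symbols were found. Named from each list were the called genes (up to 4 by p, or else the 1 of smallest p) between GF and CV, and the 3 largest changes at 1 CPM or more between tissues. Chi-square statistics between replicates were 2.37 to 34.3 per degree of freedom, so no library was a copy of another. Libraries of the same number in GF and CV ovaries deviated together (correlations 0.406, 0.251, 0.212 and 0.396). For GF ovary replicate 3, however, the correlation with CV ovary replicate 2 was higher, at 0.250. Pairing by number is thus only possible from the data, and the labels name none.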

Additional observations from a re-analysis of the deposited data

Results flagged for a closer look

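The GF over CV change of Mapkapk2 in the testis exceeded that in the ovary by 1.03 on the log2 scale (SE 0.0783), the contrast on which the gene was chosen.

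Among the 30 combinations of a member and a group of 4 or 5 libraries, 4 held a library set apart from the rest by Dixon's criterion, which chance meets in about 1 of 20 groups, and all 4 were in CV ovaries. Mapkapk2 was lowest in CV ovary replicate 4, at 81.8 CPM where the other 3 were at 87.9 to 88.5 CPM. Mapk12 was highest in replicate 2, at 3.40 CPM where the next was at 2.41 CPM. Map2k3 was highest in replicate 1, at 16.8 CPM where the next was at 13.5 CPM. Map2k6 was highest in replicate 4, at 12.4 CPM where the next was at 10.3 CPM.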

How the results depend on the processing

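Counts over all genes moved most. In the ovary 32 genes were called in the main test, 95 by DESeq2, 91 with the replicate block and 93 in the joint fit, and 25 to 33 with 1 library left out. In the testis 1638 were called, 122 in the joint fit, whose spread is shared with the ovary, and 996 to 2084 with 1 library left out, the lowest without GF replicate 2. For the difference between tissues 29 were called, 127 by DESeq2, 16 with the replicate block and 13 to 37 with 1 library left out. The number of members called was the same in every one of these settings, apart from the tissue comparisons. In the testis and for the difference between tissues the 1 member called was Mapkapk2. It was chosen on that contrast, so its call there is no test of it. There it was 9 of 10 once Adam1a counts were taken from Mapkapk5 or the Mapk11 call was lost.

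Signs turned only for changes near 0. Mapk12 in the ovary was 0.01, but −0.063 with the block, −0.052 by limma-voom and −0.21 to 0.17 with 1 library left out. Mapk13 in the testis was 0.03, but −0.12 with the block and −0.13 to 0.17 with 1 left out. Mapkapk5 in the testis was −0.01, and 0.027 less Adam1a, a setting added after the data were seen. The tissue difference of Mapk14 was −0.02, but 0.026 with the block and −0.079 to 0.024 with 1 left out. With 1 library left out, Zfp36 in the ovary ran from −0.34 to 0.10, Mapkapk3 in the testis from −0.085 to 0.022, Map2k3 in the testis from −0.034 to 0.075, the tissue difference of Mapk11 from −0.40 to 0.094 and Gdi2 in the ovary from −0.016 to 0.054. The causes were not tested.

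Mapkapk2 kept its direction throughout. In the testis the same-numbered GF and CV libraries did not deviate together (correlations −0.02, 0.07 and −0.03), so the numbers do not pair them. With the replicate block there the 1 member called was again Mapkapk2, chosen on this contrast. The call of Il1b was lost with the block (adjusted p = 0.0846, edgeR). In the joint fit the testis calls of Ppm1a, Zp3r, Dyrk3 and Srgap2 were lost (adjusted p = 0.353, 0.686, 0.928 and 0.0560), as were those of Fam72a, Rps6ka4, Eef2k, Il1b and Map2k5 (0.735, 0.928, 0.448, 0.403 and 0.604) and of Cd55, whose adjusted p was then 1.

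Depth limits the rare members: with 4 to 18 reads of Mapk12 in a testis, only large changes could have been called.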

Other observations

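The neighbouring MAP kinase branches, ERK and JNK, were counted beside the p38 pathway. Of 14 of their genes 1 rose and 1 fell in GF against CV testes, where 3.67% of all genes rose and 4.41% fell, with a median log2 fold change of 0.00. Map2k7, an activator of JNK, averaged 197.3 CPM in GF and 232.1 CPM in CV testes (log2 fold change −0.22, SE 0.0374, edgeR adjusted p = 0.000138; 0.245 in the joint fit). Map2k5, the activator of ERK5, was called at 0.18 (SE 0.0529, adjusted p = 0.0312), a call lost by DESeq2 (adjusted p = 0.0680), without CV testis replicate 1, 2 or 3 (adjusted p = 0.0815, 0.0684 and 0.129) and without GF testis replicate 1 or 3 (0.110 and 0.217). In the ovary 0 of 14 were called by edgeR, with 1, Mapk8, at an unadjusted p under 0.05 (log2 fold change −0.16, adjusted p = 0.667).

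Between the tissues 9 of the 14 were higher and 4 lower in testis, in GF and in CV mice. Over all genes 46.1% were higher and 43.7% lower in GF testis, and 46.3% higher and 44.0% lower in CV testis. Mapk6, which encodes ERK3, a partner of MAPKAPK5, averaged 692.9 CPM in GF testes and 54.3 CPM in GF ovaries (log2 fold change 3.70, SE 0.0735, edgeR adjusted p = 1.37e-18). Mapk10, the JNK gene best known from brain, averaged 61.9 CPM in GF testes and 10.7 CPM in GF ovaries (2.56, SE 0.132), and Map2k1, an activator of ERK, 13.1 CPM in GF testes and 74.4 CPM in GF ovaries (−2.49, SE 0.0856).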
